A study of Homo sapiens with 15 samples.

Results

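The promoters of ABCG1, GGT5 and SLN were the 3 that lost most DNA methylation, on average over the clones, after UHRF1 knockdown, out of 18477 promoters tested among 20033 protein-coding genes. They were selected on that measured value, the mean clone change in mC from Baseline to Knockdown, so the clones' Knockdown and Baseline values given for them are a description and carry no test. The promoter was taken from 1000 bp upstream to 100 bp downstream of the gene's 5' end in GENCODE 44 on hg38. Its mC is the percentage of reads over its CpGs that were methylated. Reads are summed over CpGs, so a read that covers several CpGs is counted at each of them.

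Whole genome bisulfite sequencing was done on HCT116, a human colorectal carcinoma cell line carrying a stably integrated, doxycycline-inducible short hairpin RNA against the 3'UTR of UHRF1 or DNMT1. For shUHRF1, 3 lines each grown from a single clone were used (Cl.3, Cl.6, Cl.9). For shDNMT1, uncloned cells were used as 2 bulk populations, R1 and R2. There were 3 libraries per population: Baseline (14 days without doxycycline), Knockdown (14 days in 10 ng/mL doxycycline) and Recovery (the same treatment, then 14 days after its removal). The baseline cells carried the hairpin too, and no library without one was compared here. Coverage summed over the CpGs of the main chromosomes was between 315732617 and 590592161 in the 15 libraries, with a median depth of 11 to 20 reads per CpG. The clones and the bulk populations differ in both hairpin and kind of population, so these cannot be told apart. Over all CpGs, mC at Knockdown was 62.5% in Cl.3, 57.3% in Cl.6 and 42.7% in Cl.9, against 40.3% in R1 and 39.4% in R2.

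UHRF1 recognises the half-methylated CpGs left by DNA replication and helps to bring in DNMT1, the enzyme that copies methylation onto the new strand. Without this maintenance, methylation is diluted as cells divide. ABCG1 is a membrane transporter that moves cholesterol out of cells, GGT5 is a gamma-glutamyl transferase that acts on leukotriene C4 and glutathione, and SLN (sarcolipin) is a small inhibitor of the sarcoplasmic reticulum calcium pump. Only DNA methylation was measured, and nothing here bears on the expression of these genes.

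The ABCG1 promoter (chromosome 21, plus strand, 5' end at 42199689) held 5 CpGs, the fewest that the filter admits. SLN (chromosome 11, minus strand, 5' end at 107719693) held 8 CpGs and GGT5 (chromosome 22, minus strand, 5' end at 24245108) held 20, while the median promoter held 43. The ratio of observed to expected CpGs was 0.119 in ABCG1, 0.171 in SLN and 0.197 in GGT5, beside a median of 0.59 over promoters. GC content was not alike in them: 39.1% in ABCG1 and 41.4% in SLN, but 60.8% in GGT5, where the median promoter had 53.0%. All CpGs of the ABCG1 promoter lay upstream of the first exon. In SLN 1 CpG lay in the first exon, and in GGT5 3 CpGs did.

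Short stretches around promoter CpGs are shown because CpGs of one promoter had different mean mC at Knockdown. Each is read 5′ to 3′ on the gene's strand of hg38, with the CpG in capitals, and its name gives the distance of the CpG from the 5' end in bp.
ABCG1 -489, chr21:42199187-42199214, plus strand: ccttcattccattCGtccttgttaccag
ABCG1 -349, chr21:42199327-42199354, plus strand: aagttaatctagaCGaaaatttgattta
ABCG1 -289, chr21:42199387-42199414, plus strand: tttcagtttttgcCGtaattgttttcaa
GGT5 -578, chr22:24245673-24245700, minus strand: ttccccacatgggCGtcttgtagtcacc
GGT5 -735, chr22:24245830-24245857, minus strand: agggaagcagaccCGcagctagggtggg
SLN -498, chr11:107720178-107720205, minus strand: tatttcaagtgggCGtgtctggctagaa
SLN -863, chr11:107720543-107720570, minus strand: ctccccagcctgtCGaacatgtgcctga
The CpGs at -489 and -349 of ABCG1 and at -863 of SLN have A or T on both sides (WCGW). Those at -289 of ABCG1, -578 of GGT5 and -498 of SLN have C or G on one side only (SCGW), and that at -735 of GGT5 has C or G on both (SCGS).

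At Baseline the ABCG1 promoter was highly methylated in every population. Its mC was 94.9% in Cl.3, 92.0% in Cl.6, 87.4% in Cl.9, 88.1% in R1 and 87.3% in R2. At Knockdown it was 48.0% in Cl.3, 34.3% in Cl.6 and 25.3% in Cl.9. The bulk populations stood at 35% in R1 and 26.0% in R2, inside the range of the clones. At Recovery mC was 52.2% in Cl.3, 59.7% in Cl.6 and 40.9% in Cl.9, but 80.8% in R1 and 87.5% in R2. These values rest on 77 to 198 reads per library, summed over the CpGs. The interval is widest in Cl.6 at Recovery (Wilson 95% interval 48.6% to 70.0%). Such intervals cover counting error only, and treat calls at neighbouring CpGs of the same read as independent. They are therefore too narrow where reads cover several CpGs.

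The GGT5 promoter differed most between clones. Its Baseline mC was 94.1% in Cl.3, 81.8% in Cl.6, 88.3% in Cl.9, 95.8% in R1 and 96.2% in R2. At Knockdown Cl.3 kept 59.1% and Cl.9 40.2%, while Cl.6 kept 10.5% (Wilson 95% interval 6.6% to 16.4%, 152 reads summed over CpGs). The bulk populations, at 28.9% in R1 and 34.3% in R2, lay between Cl.6 and Cl.9. At Recovery mC was 53.0% in Cl.3, 11.8% in Cl.6 and 57.6% in Cl.9, against 92.0% in R1 and 89.4% in R2. In Cl.6 the Recovery value was thus within the interval of its Knockdown value, and in Cl.3 it was below the Knockdown value, with overlapping intervals. Coverage was thin here: 4 of the 20 CpGs, all within 65 bp of the 5' end, had no read in any library, and 8 had at least 5 reads in every library.

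The SLN promoter had Baseline values of 94.5% in Cl.3, 94.2% in Cl.6, 86.5% in Cl.9, 90.3% in R1 and 91.3% in R2. At Knockdown they were 55.1% in Cl.3, 42.9% in Cl.6, 24.7% in Cl.9, 35.5% in R1 and 37.5% in R2. At Recovery they were 69.5% in Cl.3, 66.5% in Cl.6 and 35.4% in Cl.9, against 83.1% in R1 and 84.5% in R2. Cl.9 was the lowest library of its stage at Knockdown and at Recovery for SLN, as it was for ABCG1.

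**Figure D1:**
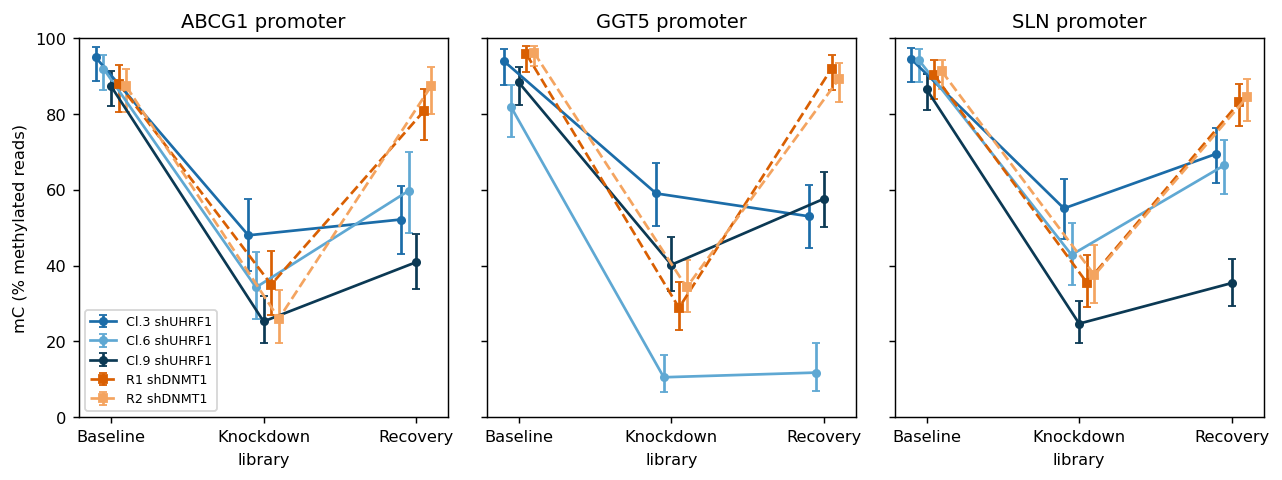
Promoter mC (vertical axis, % methylated reads) at each stage in the 3 shUHRF1 clones (circles, solid lines) and the 2 shDNMT1 bulk populations (squares, dashed lines); bars are Wilson 95% intervals. At Recovery every clone lies below both bulk populations in all 3 panels, as in 43.2% of all promoters tested, and Cl.6 stays near 11.8% at GGT5.

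From these values the mean clone change from Baseline to Knockdown was -55.6 ± 7.81 percentage points in ABCG1, -51.5 ± 18.4 in GGT5 and -50.9 ± 11.2 in SLN (SD, n = 3), ranks 1, 2 and 3. The promoters just outside were MICOS10 (-50.8 ± 13.7), RACK1 (-50.4 ± 17.0) and NECTIN3 (-50.3 ± 10.2), so the members are not set apart by a gap. The SD between clones is far larger than the distance from SLN to MICOS10. The median over promoters was -11.7 points, and 84.8% of promoters were called changed in that comparison (84.7% lower), from which nothing is read for the members.

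The shDNMT1 bulk populations share no library with that choice, and there the promoters were tested. The fit, however, estimated the spread from all 15 libraries, the clones behind the choice included. The p-values are therefore not fully independent of the choice, while the bulk changes in points use bulk libraries only. All 3 members fell at Knockdown. GGT5 fell by 64.4 points (SD 3.55, n = 2), ABCG1 by 57.2 (SD 5.83) and SLN by 54.3 (SD 0.719). The log2 odds ratios were -5.68 ± 0.524 (SE) for GGT5, -4.02 ± 0.45 for ABCG1 and -4.09 ± 0.404 for SLN. The adjusted p was 3.8e-10, 8.1e-09 and 1.1e-09 in that order (edgeR quasi-likelihood test, Benjamini-Hochberg over all promoters). Of all promoters 86.9% were called in this comparison, so being called does not set the members apart.

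In size the bulk losses of the members lay toward the large end of the range, but did not set them apart either. Just outside the choice, MICOS10 changed by -62.6 points and RACK1 by -62.4 in the bulk, more than ABCG1 and SLN. NECTIN3 changed by -49.8, less than any member. The median bulk change was -19.4 points over all promoters and -42.9 over the 5086 promoters with a baseline mC of at least 80% in both bulk populations. Among those 5086, 19 promoters lost more than GGT5, 217 more than ABCG1 and 410 more than SLN. The 5th percentile of those 5086 was -56.6 points, and SLN did not reach it. These ranks are a description and were not tested.

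**Figure D2:**
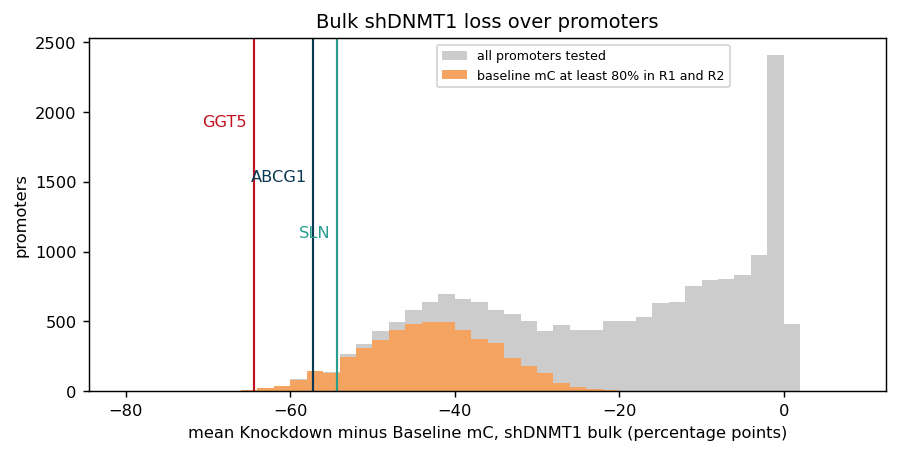
Number of promoters (vertical axis) by mean Knockdown minus Baseline mC in the shDNMT1 bulk populations (horizontal axis, percentage points), for all promoters (grey) and those with baseline mC of at least 80% in both (orange). The lines mark GGT5 at -64.4, ABCG1 at -57.2 and SLN at -54.3, all left of the orange median of -42.9.

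After removal of doxycycline the bulk populations regained most of the loss at these promoters. The share of the lost points that came back was 86.2% in R1 and 100.3% in R2 for ABCG1, 94.4% and 89.0% for GGT5, and 86.9% and 87.4% for SLN. Recovery minus Baseline was -3.56 points for ABCG1, -5.30 for GGT5 and -6.97 for SLN, each with adjusted p = 1.0 by edgeR. The median change was -0.50 points over all promoters, and -1.23 over the 5086 promoters with high bulk Baseline described above. The share of all promoters with a lower value was 15.1% for ABCG1, 7.4% for GGT5 and 3.8% for SLN. The background of this comparison was 0.0%: edgeR called no promoter, with 599 at an unadjusted p under 0.05, and limma called none, with 647. The unadjusted edgeR p was 0.386 for ABCG1, 0.051 for GGT5 and 0.042 for SLN, so a deficit of a few points is not shown to be absent. The spread in this test was also estimated with the clones, which differed from each other more than R1 and R2 did.

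In the clones the regained share was smaller and uneven, and is given as a description because it uses the Baseline and Knockdown values. It was 8.89% in Cl.3, 44.1% in Cl.6 and 25.2% in Cl.9 for ABCG1. For SLN it was 36.6%, 46.0% and 17.3% in the same order. For GGT5 it was -17.2% in Cl.3, 1.74% in Cl.6 and 36.2% in Cl.9.

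The Recovery libraries were not used in the choice, and were compared between clones and bulk. They come from the same clones, though, whose deviations from the clone mean correlated between Knockdown and Recovery by 0.513 to 0.798 over promoters. The comparison is therefore not independent of the choice, and is given as values rather than as support. GGT5 had 40.8% ± 25.3 in the clones (SD, n = 3) against 90.7% ± 1.89 in the bulk (n = 2), a log2 odds ratio of -3.84 ± 0.768 (SE; edgeR adjusted p = 0.0029). ABCG1 had 50.9% ± 9.48 against 84.1% ± 4.76 (edgeR adjusted p = 0.051), and SLN had 57.1% ± 18.9 against 83.8% ± 0.942 (edgeR adjusted p = 0.09). Only GGT5 passed, where 2.22% of promoters were called (2.19% lower in the clones), and without Cl.6 its edgeR adjusted p was 0.086. The calls shifted with single clones: ABCG1 passed without Cl.3 (edgeR adjusted p = 0.029) or Cl.9 (0.026) and by limma (adjusted p = 0.048), and SLN without Cl.3 (0.033) or Cl.9 (0.049), where its difference went from -26.7 to -15.8 points. The number of promoters called went from 411 to 1833 without Cl.3, 87 without Cl.6, 1339 without Cl.9, and to 0 without R1 and 1 without R2, where the bulk arm was 1 library. In each member all clones lay below both bulk populations, as in 43.2% of promoters, and the exact two-sided permutation test of 3 against 2 gave its smallest possible p of 0.2.

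Within the promoters, the CpGs kept different levels at Knockdown. In ABCG1 the CpG at -349 stood at a Baseline mean of 90.0% in the clones, and at 80% in R1 and 66.7% in R2. At Knockdown it had 5.0% in Cl.3, 11.5% in Cl.6 and 5.3% in Cl.9, and 15.6% in R1 and 13.2% in R2. The CpG at -289, 60 bp away, had Baseline means of 98.0% in the clones and 95.9% in the bulk, and kept 88.2%, 60.9% and 57.1% in the clones and 50% in R1 and 46.4% in R2. The order of these 2 Knockdown levels was the same in all 5 populations, but in Cl.3, Cl.9, R1 and R2 the Baselines already differed in that direction, by most in R2 and Cl.9. On average the clones changed by -82.7 points at -349 and -29.3 at -289. The bulk populations changed by -58.9 and -47.7, and R2 alone by -53.5 and -50. At Recovery the CpG at -349 stood at 16.7% in Cl.3, 6.7% in Cl.6 and 10.5% in Cl.9, against 56.0% in R1 and 76.0% in R2, the last above its Baseline. The CpG at -289 stood at 89.3%, 94.1% and 78.9% in the clones, of which only Cl.6 had its Baseline level, and at 100.0% in both bulk populations. The third ABCG1 CpG printed above, at -489, had a mean of 34.2% in the clones and 26.0% in the bulk at Knockdown.

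In SLN the CpG at -498 had a mean Knockdown mC of 35.1% in the clones and 26.1% in the bulk, and that at -863 had 56.1% and 68.5%. In Cl.3 they were close, at 47.1% and 47.6%. The other SLN promoter CpG with A or T on both sides, at -45, had 41.6% and 23.2%. In GGT5 the CpG at -578 had 21.8% in the clones and 22.7% in the bulk, and in Cl.6 none of its 22 reads was methylated, which allows up to 13.6%. The CpG at -735 had 59.7% and 39.3%, on as few as 5 reads per library. Single CpGs rest on few reads, share their molecules with their neighbours, and are not replicates.

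**Figure D3:**
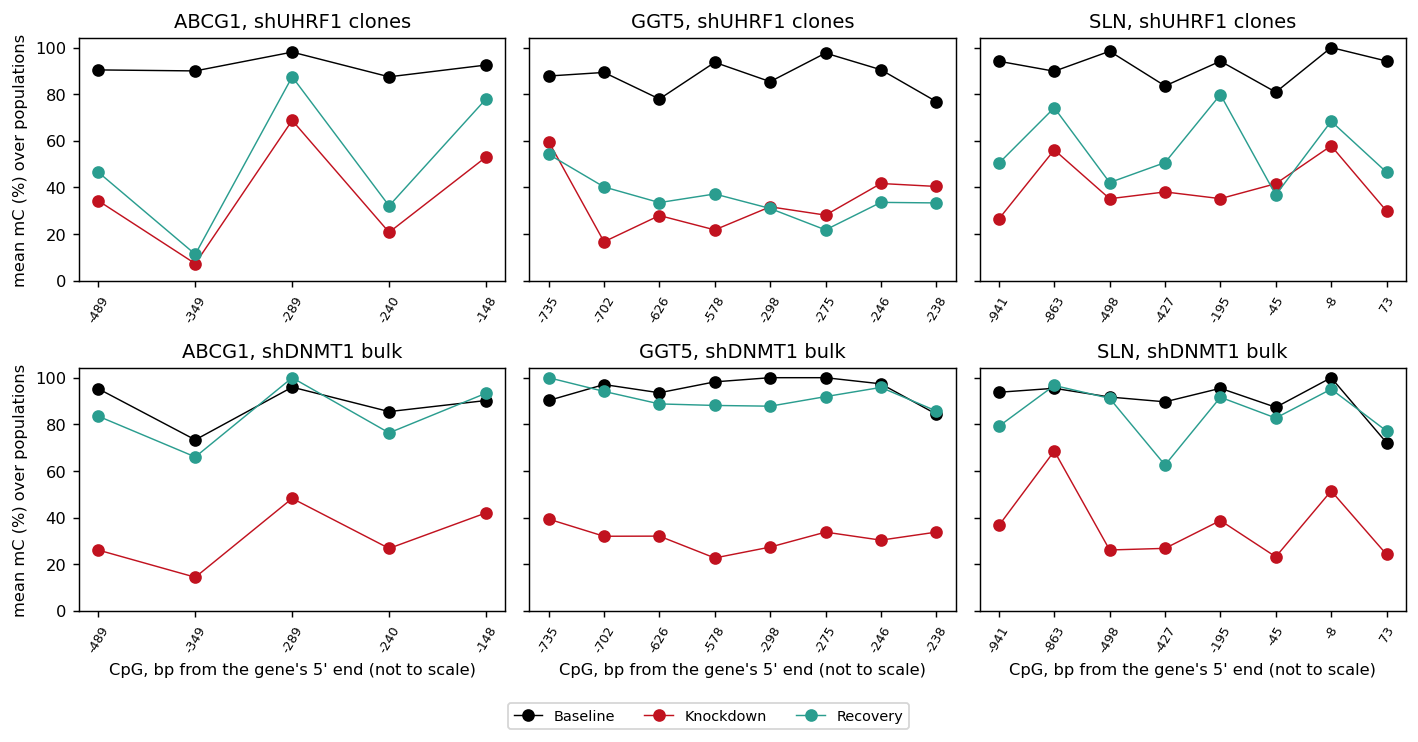
Mean mC (vertical axis, %) of each promoter CpG with at least 5 reads in every library, by distance from the 5' end (horizontal axis, in order and not to scale), for the clones (top) and the bulk (bottom) at Baseline (black), Knockdown (red) and Recovery (green). The ABCG1 CpG at -349 goes from a mean of 90.0% to 7.3% in the clones and from 73.3% to 14.4% in the bulk, and the one at -289 from 98.0% to 68.7% and from 95.9% to 48.2%.

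The surrounding sequence lost less than the promoters on average. Over 5 kb either side, promoter left out, the bulk change was -43.5 ± 2.6 points around ABCG1, -48.5 ± 4.2 around GGT5 and -42.1 ± 1.7 around SLN (SD, n = 2). The promoter exceeded this flank by 11.4 points in R1 and 16.0 in R2 for ABCG1, by 21.4 and 10.5 for GGT5, and by 13.9 and 10.4 for SLN. The GGT5 flank had less to lose: its Baseline was 81.0% in R1 and 85.4% in R2, against 95.8% and 96.2% in the promoter. The ABCG1 and SLN flanks began slightly above their promoters in R1 and R2. The promoter lost more in both populations for each gene, which 2 populations cannot test. Promoter and flank were not matched for CpG spacing. No CpG of the ABCG1 or SLN promoter had another within 20 bp, while some in their flanks did. In the clones the flanks changed by -26.7 ± 12.5, -38.7 ± 9.1 and -25.2 ± 10.3 points in the same order (n = 3). GGT5 thus sat in the flank with the largest mean loss of the 3. From 5 to 50 kb on either side the bulk change was -39.1 around ABCG1, -37.2 around GGT5 and -40.2 around SLN.

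In 200 bp bins, loss at GGT5 was not confined to the promoter. Clone means went from 93.5% to 26.7% in the bin at -2200 bp and from 80.9% to 26.4% in that at 2200 bp. Farther out they went from 88.7% to 35.5% in the bin at -3000 bp and from 97.1% to 46.0% in that at 2600 bp. Other bins lost less: that at 2400 bp went from 96.6% to 79.2%, and that at 4400 bp from 98.5% to 97.2%. No bin from -200 to 199 bp had 5 reads in every library, so the 5' end itself was not covered. A stretch at -2800 to -2401 bp was already low at Baseline. In the 2 bins of that stretch Baseline mC was 3.7% and 5.41% in Cl.3, and 20.8% and 12.7% in R2. No bin upstream of -3000 bp had 5 reads in every library. The pseudogene GGTLC4P (chr22:24248074-24249466) is annotated there, and its part in this was not tested. In ABCG1 the bin at -400 bp went from a mean of 91.8% to 31.2% in the clones and from 84.4% to 28.6% in the bulk, while the bin at 400 bp, past the promoter, went from 96.5% to 71.1% and from 98.3% to 63.2%. Most ABCG1 bins past the promoter kept more in the clones at Knockdown than any bin in it. That at 1600 bp went from 96.9% to 75.3% in the clones and from 96.7% to 54.6% in the bulk. Some fared like those in the promoter: that at 1000 bp went from 94.8% to 40.3% in the clones and from 93.9% to 34.7% in the bulk. In SLN the lowest promoter bin at Knockdown was that at -600 bp, with 36.7% in the clones and 26.4% in the bulk. The SLN bin at 2600 bp, outside the promoter and with 1 CpG, was lower in the clones at 19.1%, from a Baseline of 66.0%.

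**Figure D4:**
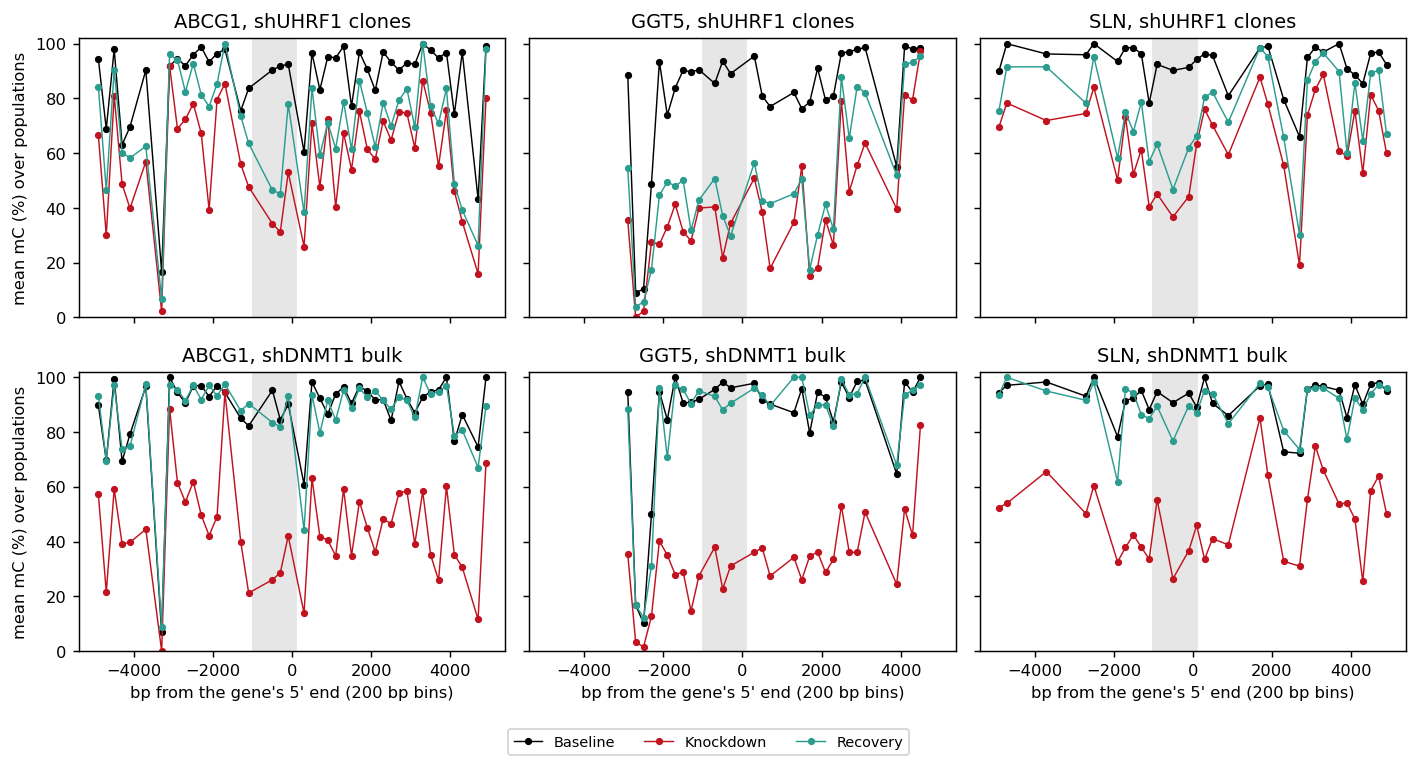
Mean mC (vertical axis, %) in 200 bp bins by distance from the 5' end (horizontal axis, bp), for bins with at least 5 reads in every library; black is Baseline, red Knockdown, green Recovery, and grey shading the promoter. In the bulk (bottom) the Recovery line lies near Baseline in most bins but below it in some, as at -600 bp of SLN (90.7% to 76.7%) and at -2400 bp of GGT5 (50% to 31.2%), and in the clones (top) it lies between Baseline and Knockdown over most of it.

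In the bulk populations, CpGs with no other CpG within 20 bp lost more on average than closer-set CpGs around all 3 genes, promoter CpGs included. In R1 and R2 the mean change around ABCG1 was -45.1 and -49.7 points at 70 such CpGs, against -37.5 and -39.2 at 36 closer-set ones. Around SLN it was -46.7 and -47.4 at 51, against -33.4 and -40.8 at 17. Around GGT5 it was -53.2 and -56.6 at 37, against -45.1 and -49.0 at 44. Baseline levels of the classes were not compared, so these changes are not set against what each class had to lose. The GGT5 window spans the stretch at -2800 to -2401 bp, where the bulk Baseline means of the bins were 16.8% and 10.2%.

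The 5' end of the gene was not the start of the main annotated transcript in ABCG1 and SLN. The MANE transcript, the one chosen as representative, starts 19451 bp downstream in ABCG1 (ABCG1-205) and 7637 bp downstream in SLN (SLN-201), but 26 bp from the 5' end in GGT5. At ABCG1-205, which held 64 CpGs, Baseline mC ranged from 46.3% in Cl.3 to 84.5% in Cl.9. Its Knockdown mC was 57.9% in Cl.3, above that clone's Baseline, 57.5% in Cl.6 and 53.2% in Cl.9, against 38.4% in R1 and 29.6% in R2. The mean change there was -10.4 ± 21.5 points in the clones and -24.7 ± 8.5 in the bulk. The choice of ABCG1 therefore rests on its upstream start. At SLN-201 the change in the clones was -27.4 ± 11.4 points, against -50.9 at the 5' end, so the choice of SLN rests on its upstream start too. In the bulk the change at SLN-201 was -52.6 ± 0.4, about as large as at the upstream start. The far downstream start of GGT5 (GGT5-205) changed by -14.8 ± 10.9 in the clones and -35.5 ± 2.6 in the bulk.

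**Figure D5:**
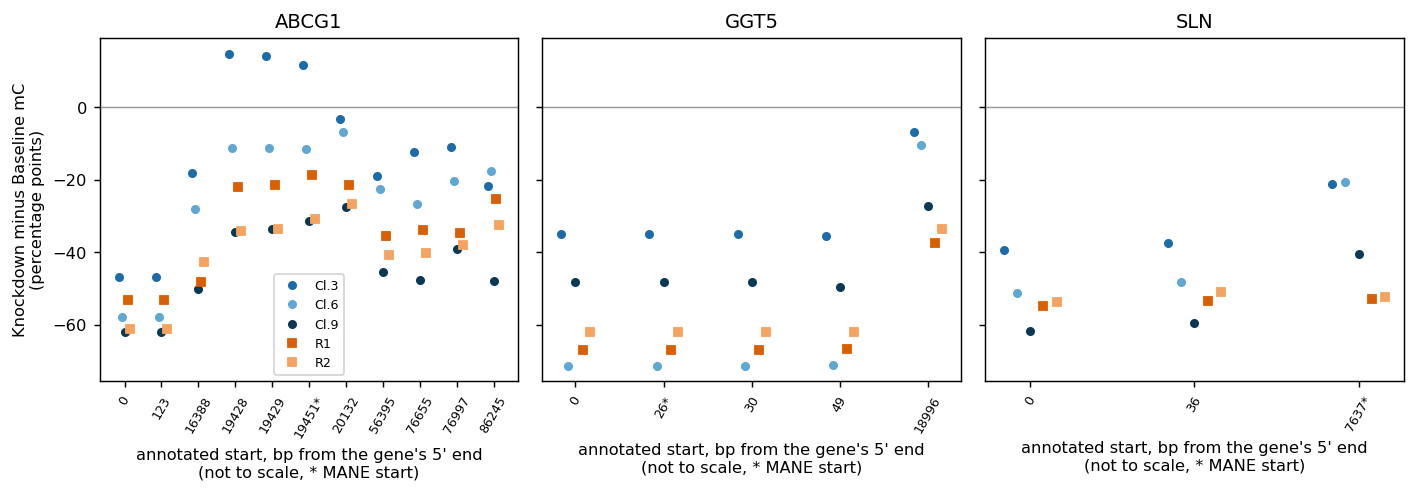
Knockdown minus Baseline mC (vertical axis, percentage points) in the window of each annotated start, ordered by distance from the gene's 5' end (horizontal axis, not to scale), for 3 clones (circles) and 2 bulk populations (squares); stars mark the MANE start. At ABCG1 the 5' end loses 46.9 points or more in every population, while Cl.3 is above 0 at the MANE start.

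The authors' domain calls placed the 5' ends of ABCG1 and SLN in highly methylated domains (HMDs) at Baseline in all 5 populations. GGT5 was in an HMD in Cl.3, Cl.9 and R2 and in a partially methylated domain (PMD) in Cl.6 and R1. At Knockdown no population had an HMD at any of them. ABCG1 and SLN were then in a PMD in all 5 populations, and GGT5 in Cl.3 and Cl.9. The UMR and LMR calls given next for ABCG1 and SLN lay within these PMDs. At Knockdown the 5' end was called an unmethylated region (UMR) in Cl.6, R1 and R2 for GGT5, in Cl.9 and R2 for ABCG1, and in R1 for SLN. A lowly methylated region (LMR) was called there in Cl.6 and R1 for ABCG1 and in Cl.9 and R2 for SLN. At Recovery an LMR was called in Cl.9 for GGT5 and SLN. Among the clones a PMD was called then in Cl.6 and Cl.9 for ABCG1, in Cl.9 for SLN, and in Cl.3 and Cl.9 for GGT5. At Recovery GGT5 was still a UMR in Cl.6, and was an HMD in R1 and a PMD in R2, and no UMR was called at ABCG1 or SLN. ABCG1 and SLN were back in HMDs at Recovery in R1, R2 and Cl.3, and SLN also in Cl.6. An HMD is called on mean mC across the whole domain and not on the promoter alone, and ABCG1 promoter mC in Cl.3 was then 52.2%.

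Among genes of related function, GGT1, the classical gamma-glutamyl transferase, fell by 59.9 points in the bulk (SD 3.7) and changed by -28.8 ± 11.5 in the clones. GGT6 changed by -55.2 in the bulk, LTC4S, which makes leukotriene C4, by -48.1, and LTA4H by -45.4. In this list 14 of 14 promoters tested were called lower at shDNMT1 knockdown, with a median of -40.9 points. NR1H3, the sterol-sensing receptor LXR alpha, changed by -49.9 in the bulk, SCARB1 by -48.0, LCAT by -45.1 and APOA1 by -43.1. In the cholesterol efflux list 10 of 11 were called lower, with a median of -38.9, and NR1H2 was not (-0.13 points). STRIT1, which relieves inhibition of the calcium pump, changed by -51.4, the pump gene ATP2A1 by -51.0, and the calcium-binding CASQ2 and CASQ1 by -42.7 and -41.8. In the calcium pump list 6 of 7 tested were called lower, with a median of -41.8. The 86.9% of all promoters called is the background for these counts. At shDNMT1 recovery none of the 3 lists had a call, beside 0.0% of all promoters. Between recovered clones and bulk LCAT alone did (-10.8 points, edgeR adjusted p = 0.036), beside 2.22% of all promoters. In the clones at Knockdown 10 of 11, 14 of 14 and 7 of 7 were called lower in the order efflux, gamma-glutamyl and pump, where 84.7% of all promoters were. At Recovery 9, 12 and 6 were, beside 65.0% of all promoters. That background fell from 12006 promoters to 5475 with no replicate block and to 7913 without Cl.9.

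The promoters whose mC over the 15 libraries lay nearest to ABCG1 were INTS6, LY6E and OR2A5, with a root mean square distance of 5.99, 6.08 and 6.18 points. For SLN they were HOXC6, CCDC33 and SLC17A4, at 4.14, 4.44 and 4.82 points. For GGT5 the nearest were NECTIN3, LTBR and APOBEC3H, farther off at 9.48, 11.6 and 14.4 points.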

How the data were processed

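Reads were aligned by the authors with Meth10X v1.2 to hg38, and they deposited whole-number counts of methylated calls and of coverage per CpG in 3 tables, one column pair per library, with no normalization. The authors' domain files, per the labels made with bedtools 2.25.0 and per the methods with MethylSeekR, were used for class names only. All 2430059 positions on chromosomes 11, 21 and 22 were CpG cytosines of hg38. Counts were summed over each promoter. Promoters under 5 CpGs, or under 50 reads in any library, were left out, and the rest were tested with edgeR 4.0.16 (glmQLFit and glmQLFTest, methylation design, population as block, all 15 libraries) in R 4.3.3. Clones against bulk at Recovery was fitted on the 5 Recovery libraries with no block, since each population has one shRNA. The threshold was an adjusted p of 0.05. Libraries of one group differed by more than independent calls would (chi-square per degree of freedom 3.21 or more), and none was taken as a duplicate. Calls at neighbouring CpGs of the same read are not independent, which also raises this ratio. It therefore does not show a difference beyond the sampling of reads. Samples with one population name are the same clone or parallel-plated population. Deviations from the group mean correlated across stages by 0.304 to 0.798 in the clones but by -0.006 to 0.028 in the bulk populations. Whether R1 and R2 were separate transductions is not given in the sources used here, so they may differ by technical spread only. Their p-values use a spread estimated over all 15 libraries, not that between R1 and R2 alone. Chi-square per degree of freedom was 3.21 to 3.42 between R1 and R2, and 4.43 to 21.6 between clones.

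On simulated data for shDNMT1 knockdown (18477 promoters, 100 changed per size), with the spread taken from the real libraries, the test recovered 11% of changes of -1 log2 odds, 93% of -2 and 100% of -4, with 3.32% of calls false. Few promoters were changed in it, and in this comparison alone, whereas 86.9% were called in the real data. The recovered and false shares may therefore differ in the real data. Of 2 earlier simulations, the first had a wider spread than the libraries and recovered none, and the second had a somewhat narrower one and recovered nearly all changes of -2. The simulation was changed after these outcomes were seen, and the test was not.

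The members and gene lists were chosen with earlier results of these data known. Besides the members, the genes named were the next 3 by clone loss, the 3 nearest in mC over all libraries, and, in each list, at most 4 with baseline mC of at least 50% in both bulk populations by bulk loss. Outside this rule, NR1H2 was named as the efflux gene not called lower, and the pseudogene GGTLC4P as a neighbour of GGT5. Alternatives were limma on log2 of methylated over unmethylated reads (1 added to each), other filters, a window of 500 bp either side, no block, and leaving out each population. The promoters of the members were not among the RefSeq promoter sequences used here.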

Additional observations from a re-analysis of the deposited data

How the results depend on the processing

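The loss of ABCG1, GGT5 and SLN at shDNMT1 knockdown stayed called by edgeR or limma in every alternative that could be fitted. Without R1 or R2 that arm was 1 population, assumed to vary like the clones, which gave the whole spread. ABCG1 (5 CpGs) and SLN (8) could not be tested with at least 10 CpGs. Leaving out 1 population moved it over -61.3 to -53.1 points (ABCG1), -66.9 to -61.9 (GGT5) and -54.8 to -53.8 (SLN). With no replicate block the edgeR adjusted p was 5.9e-05 for ABCG1, 0.00016 for GGT5 and 0.00016 for SLN, and 14596 promoters were called in place of 16051. Leaving out 1 population gave 13146 to 16220.

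With CpGs of at least 10 reads summed, SLN changed by -52.8 at shDNMT1 knockdown and -9.93 at recovery, and GGT5 by -7.62 at recovery. That setting keeps only 3 of the 20 GGT5 promoter CpGs and 5 of the 8 in SLN. The unweighted mean gave SLN -6.17 at recovery, and the 500 bp window GGT5 -2.34, SLN -4.31 and ABCG1 -4.86. Leaving out 1 population gave -7.30 to 0.19 (ABCG1), -6.83 to -3.78 (GGT5) and -7.16 to -6.79 (SLN) there, with 0 promoters called by edgeR.

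Clones against bulk at Recovery depended most on the processing. The count of 411 became 133 with limma and 46 with the 500 bp window, and 0 to 1833 leaving out 1 population: 1833 without Cl.3, 87 without Cl.6, 1339 without Cl.9, 0 without R1 and 1 without R2. The ABCG1 difference passed with limma (-33.2 points, adjusted p = 0.048), and ranged from -37.6 to -28.2 leaving out 1 population, passing without Cl.3 (0.029) or Cl.9 (0.026). GGT5 ranged from -58.3 to -35.4 and was lost without Cl.6. Without R1 or R2 the bulk arm was 1 library, assumed to vary like the clones, and all 3 members had an adjusted p of 0.78, which says nothing about GGT5. SLN ranged from -32.9 to -15.8, passing without Cl.3 (0.033) or Cl.9 (0.049). The cause was not tested.

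In the clones, SLN changed by -38.0 at Knockdown with the 500 bp window. With CpGs of at least 10 reads summed, GGT5 (3 of 20 CpGs) changed by -63.8 at Knockdown and -57.3 at Recovery. SLN (5 of 8 CpGs) changed by -44.5 and -27.4. Leaving out 1 clone gave -59.9 to -52.4 (ABCG1), -59.7 to -41.6 (GGT5) and -56.6 to -45.4 (SLN) at Knockdown, and -44.6 to -37.5, -55.5 to -35.9 and -39.4 to -26.4 at Recovery. The clones' count at Recovery fell from 12006 to 5475 with no replicate block and to 7913 without Cl.9 (7913 to 12738 leaving out 1 population), and at Knockdown from 15660 to 12023 with no replicate block, with 13061 to 15788 leaving out 1 population.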
